A study of Mus musculus with 30 samples.

Results

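The genes described here are 10 markers of the base of the colonic crypt: Lgr5, Ascl2, Smoc2 and Lrig1, which mark intestinal stem cells, Axin2, Rnf43 and Znrf3, which restrain the Wnt pathway that induces them, and Sox9, Ephb2 and Ephb3, Wnt targets of the crypt base. They were chosen by name, with earlier results of these data known, and all 10 are among the 14475 genes of the deposited table. Their levels are followed in 30 colon libraries, as FPKM, reads scaled by gene length in kb and by library size in M reads. The libraries are 8 ascending mutants and 7 ascending controls, 8 descending mutants and 7 descending controls, all from female mice. The mutants, labelled TM-DKOAsc, carry C1galt1 f/f, VillinCre-ERT2 and C3GnT-/-, and the controls are WT littermates. C1galt1 makes the core 1 and C3GnT, the product of B3gnt6, the core 3 of O-glycans, sugars attached to mucins. Tamoxifen went to mutants and controls alike, at 0.5 mg (about 20 mg/kg) on each of 5 days. Tissue was taken 5 or 10 days after the last dose, and the labels do not say which applies to which library. The Villin promoter confines the inducible Cre to gut epithelium, so that C1galt1 is targeted there alone, while the C3GnT deletion is present from birth and in every cell. Each group is spread over 3 cages. Cage A has the strain label C57BL/6 Background and an age of 3.4 months. Cages B and C have the strain label Mixed BL/6-129SvJ, at 2.6 months in cage B and 3.2 months in cage C, so that cage, strain label and age cannot be told apart. The growth protocol goes against the label of cage A, since it gives a mixed background for mutants and littermates alike. In each region cage A has 3 mutants and 2 controls, cage B has 2 mutants and 3 controls, and cage C has 3 mutants and 2 controls. Libraries are named by region, genotype, cage and number, and it is not said whether an ascending and a descending library of the same number come from 1 mouse.

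The colonic epithelium is renewed from stem cells at the crypt base, which are held in that state by Wnt proteins and R-spondins from the surrounding stroma. Wnt binding to Frizzled and Lrp receptors stabilizes beta-catenin, which with Tcf factors switches on target genes. Lgr5, a receptor for R-spondins, is such a target, and Ascl2 is a transcription factor that maintains Lgr5-positive cells. Rnf43 and Znrf3 are ubiquitin ligases that remove Frizzled from the cell surface, R-spondins bound to Lgr receptors block them, and Axin2 is a scaffold of the complex that degrades beta-catenin. EphB2 and EphB3 are receptors that sort cells along the crypt by repulsion from cells with ephrin-B ligands.

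The libraries are whole tissue, so that fewer crypt base cells and less RNA per cell cannot be told apart. Estimated depths ran from 1.46 to 7.76 M reads in ascending mutants and from 3.39 to 6.42 M in ascending controls, and from 6.5 to 8.99 M in descending mutants and from 3.21 to 8.99 M in descending controls. Epithelium was present in each library, with a summed level of 11 epithelial markers, Epcam and Krt8 among them, between 3677 and 8620 FPKM. Of the targeted genes, C1galt1 had 18.3 to 34.3 FPKM in ascending mutants and 21.5 to 45.7 FPKM in ascending controls, and 14.6 to 36.7 FPKM in descending mutants and 28.0 to 38.7 FPKM in descending controls. These ranges overlap, and the labels do not say which exons are removed, so that a whole-gene value checks the genotype labels little. B3gnt6 reached at most 0.53 FPKM in ascending mutants and 0.06 FPKM in descending mutants, but was also at or under 0.6 FPKM in all controls except ascending controls B1 and B2, with 9.52 and 19.5 FPKM.

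All 10 genes are annotated as protein-coding in GENCODE M21 on GRCm38, the build named in the labels. Of the stem cell genes, Lgr5 lies at chr10:115450311-115587780, Ascl2 at chr7:142966829-142969264, Smoc2 at chr17:14279506-14404790 and Lrig1 at chr6:94604529-94700158. Of the feedback genes, Axin2 lies at chr11:108920349-108950783, Rnf43 at chr11:87662722-87735539 and Znrf3 at chr11:5276324-5444847. Of the crypt position genes, Sox9 lies at chr11:112782224-112787760, Ephb2 at chr4:136647539-136835988 and Ephb3 at chr16:21204755-21223305. The deposited values are per gene and not per exon or UTR.

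Lrig1, an inhibitor of ErbB receptors, had the highest mean level of the 10 genes in all 4 groups, and Lgr5 the lowest. Lrig1 averaged 22.2 ± 3.43 FPKM in ascending mutants and 24.6 ± 1.67 FPKM in ascending controls, and 43.2 ± 8.24 FPKM in descending mutants and 47.3 ± 9.98 FPKM in descending controls (SD, n = 8, 7, 8 and 7 libraries). Lgr5 averaged 0.73 ± 0.246 FPKM in ascending mutants and 1.17 ± 0.274 FPKM in ascending controls, and 0.834 ± 0.281 FPKM in descending mutants and 2.09 ± 1.22 FPKM in descending controls (SD, same n). Sox9 stood next to Lrig1 in each group, with overlapping ranges in each of them. Axin2 and Rnf43 followed, changing places between groups, then Ephb2 and Ephb3, whose order differs between the regions, then Znrf3 and Smoc2, with Znrf3 higher in the ascending groups and Smoc2 higher in the descending groups, and then Ascl2.

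**Figure D1:**
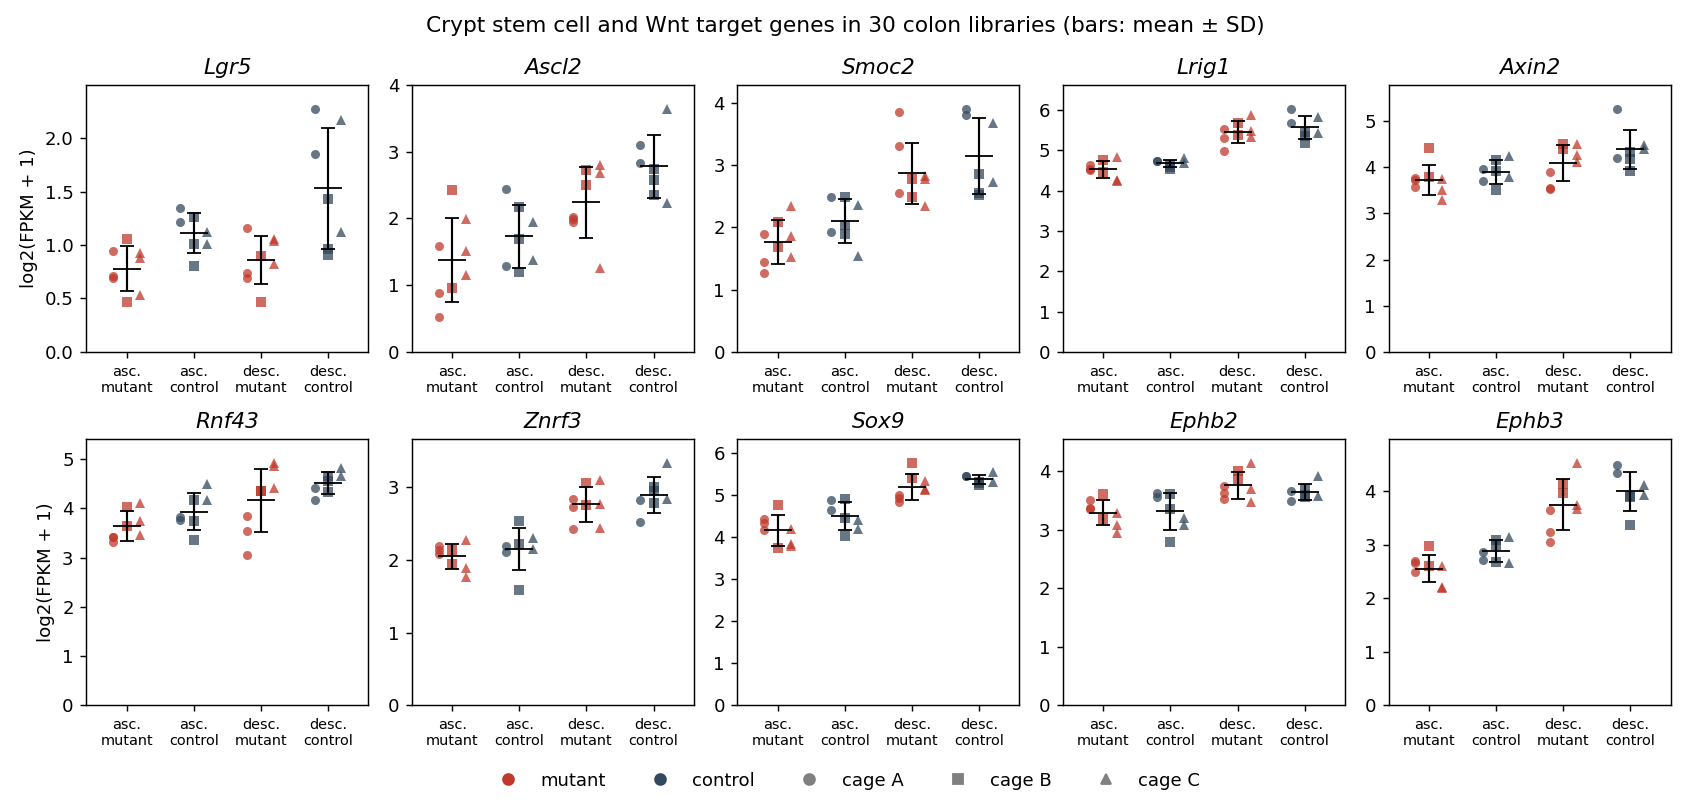
Level of each of the 10 genes, as log2(FPKM + 1), in the 30 libraries, by region and genotype, with symbols for cages and bars for the mean ± SD. Lrig1, Sox9, Ephb3 and Smoc2 sit lower in all ascending libraries than in all descending libraries of the same genotype, and mutants and controls of a region overlap for each of the 10 genes.

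The regions were compared first, within each genotype. Of the 10 genes, 9 were lower in ascending than in descending mutants and 8 were lower in ascending than in descending controls. The test was limma on log2(FPKM + 1) with cage as a covariate and Benjamini-Hochberg adjustment over all genes, and genes passed at an adjusted p under 0.05. A large share of all genes also passed, 44% in mutants and 37.9% in controls in either direction, and as lower in ascending colon 29.7% in mutants and 25.1% in controls, and the 10 genes' counts are to be read against those shares. The median difference of the 10 genes, ascending minus descending, was -0.79 in mutants and -0.80 in controls on the log2 scale, where the median over all genes was -0.16 in mutants and -0.14 in controls. After median-of-ratios scaling of the libraries the all-gene medians were -0.028 in mutants and -0.0083 in controls, and the medians of the 10 genes were -0.66 in both. That scaling also changed the balance of calls among all genes, 2320 of 4612 higher in mutants in place of 1748 of 5368, and 2137 of 4026 higher in controls in place of 1598 of 4744.

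**Figure D2:**
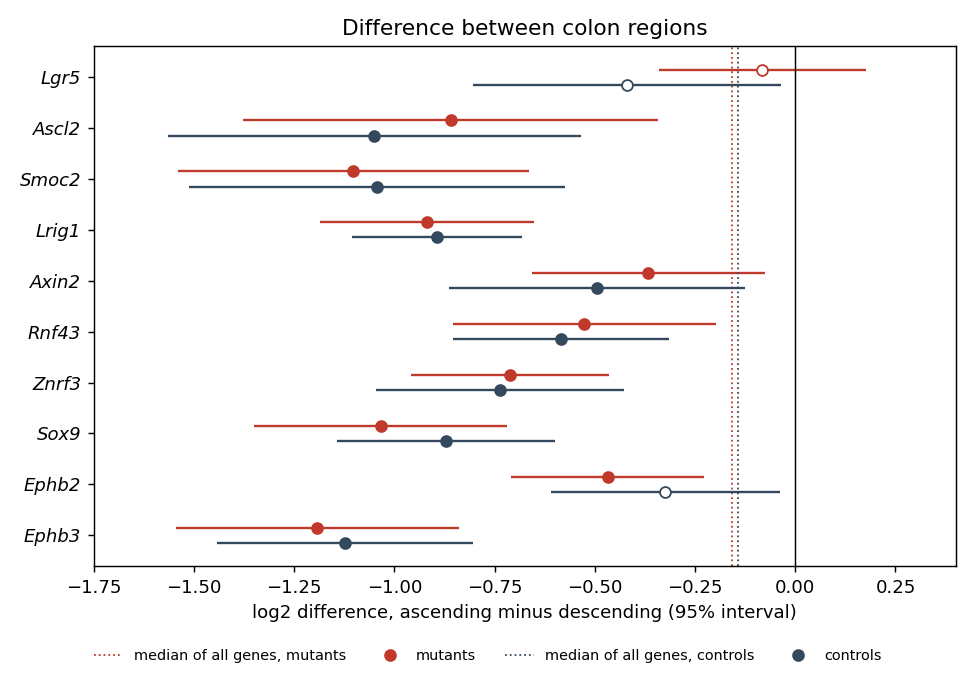
Difference in log2(FPKM + 1) between ascending and descending colon for each gene, with its 95% interval, in mutants and in controls. Filled points passed at an adjusted p under 0.05, and dotted lines mark the medians over all genes, -0.16 in mutants and -0.14 in controls. All 20 points lie below 0, where 34.2% of all genes in mutants and 34.7% in controls lie above it. Open points are Lgr5 in both genotypes and Ephb2 in controls.

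Among the stem cell genes, Smoc2, a secreted matrix protein that marks Lgr5-positive cells, separated the regions fully. In mutants Smoc2 had 1.41, 2.42 and 4.05 FPKM in ascending colon (lowest, median and highest of 8) and 4.10, 5.85 and 13.5 FPKM in descending colon. In controls it had 1.90, 3.09 and 4.62 FPKM in ascending colon (of 7) and 4.72, 6.28 and 13.9 FPKM in descending colon. No ascending library reached the lowest descending library of its genotype. The log2 difference was -1.10 ± 0.21 in mutants (SE, adjusted p = 4.4e-04) and -1.04 ± 0.22 in controls (adjusted p = 0.0022).

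Lrig1 separated the regions likewise. It had 17.8, 22 and 27.4 FPKM in ascending mutants and 30.5, 42.0 and 57.8 FPKM in descending mutants, and 22.1, 24.5 and 27.1 FPKM in ascending controls and 35.2, 43.1 and 63.8 FPKM in descending controls. The mean of the ascending colon was 0.515 times that of the descending colon in mutants and 0.520 times in controls, with log2 differences of -0.92 ± 0.13 (adjusted p = 2.0e-05) and -0.89 ± 0.099 (adjusted p = 1.5e-05). Exons of Lrig1 overlap those of Slc25a26 on the other strand over 144 bases, 2.58% of the exon length of Lrig1, and no source used here says whether counting was by strand.

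Ascl2 was lower in ascending colon in both genotypes but with overlap. It had 0.44, 1.54 and 4.4 FPKM in ascending mutants and 1.39, 3.86 and 6.00 FPKM in descending mutants, and 1.29, 2.22 and 4.42 FPKM in ascending controls and 3.68, 5.68 and 11.4 FPKM in descending controls. The difference was -0.86 ± 0.24 in mutants (adjusted p = 0.0095) and -1.05 ± 0.24 in controls (adjusted p = 0.0039). At these levels the gene rests on few reads: ascending mutants had an estimated 1 to 25.6 reads of Ascl2 and ascending controls 8.3 to 46.1. The call in mutants was lost without cage A (adjusted p = 0.0951) and the call in controls without cage B (adjusted p = 0.0525).

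Lgr5 did not pass in either genotype. It had 0.38, 0.74 and 1.08 FPKM in ascending mutants and 0.38, 0.815 and 1.23 FPKM in descending mutants, a difference of -0.082 with a 95% interval of -0.34 to 0.18 (adjusted p = 0.613). In controls it had 0.75, 1.17 and 1.55 FPKM in ascending colon and 0.88, 1.69 and 3.83 FPKM in descending colon, a difference of -0.42 with an interval of -0.80 to -0.04 (adjusted p = 0.0796). In controls Lgr5 passed when ascending control B2 or descending control C1 was left out (adjusted p = 0.0471 and 0.0399). The descending controls were spread widely for this gene, with 2.60, 3.83 and 3.49 FPKM in A1, A2 and C2 and 0.88 to 1.69 FPKM in the other 4. The same 3 libraries had the highest Smoc2 and Ascl2 of the descending controls, at 13.9, 12.9 and 11.7 FPKM of Smoc2 and 6.10, 7.55 and 11.4 FPKM of Ascl2. They also had the lowest estimated depths of the descending controls, 6.11, 3.21 and 5.15 M reads, and the highest summed level of 11 fibroblast markers, 192, 185 and 117 FPKM, against 31.1 to 80.2 FPKM in the other 4. Their summed proliferation genes were the highest of the descending controls, 279, 325 and 249 FPKM, against 182 to 234 FPKM in the other 4. Their summed epithelial markers were the lowest, 6187, 3677 and 5654 FPKM, against 6259 to 8620 FPKM. Summed smooth muscle and macrophage markers did not set these libraries apart. The part of depth and of tissue content in the spread of Lgr5 was not tested.

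Of the Wnt feedback genes, Znrf3 was lower in ascending colon at -0.71 ± 0.12 in mutants (adjusted p = 1.3e-04) and -0.74 ± 0.14 in controls (adjusted p = 0.0014). It had 2.39, 3.30 and 3.82 FPKM in ascending mutants and 4.38, 5.78 and 7.51 FPKM in descending mutants, without overlap. In controls it had 2, 3.56 and 4.81 FPKM in ascending colon and 4.73, 6.12 and 9.07 FPKM in descending colon, where ascending control B2 stood just above the lowest descending control.

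Rnf43 had 8.94, 10.8 and 16.3 FPKM in ascending mutants and 7.34, 19.4 and 29.4 FPKM in descending mutants, and 9.30, 13.1 and 21.7 FPKM in ascending controls and 16.9, 22.4 and 27.1 FPKM in descending controls. It was lower in ascending colon at -0.53 ± 0.16 in mutants (adjusted p = 0.0119) and -0.58 ± 0.13 in controls (adjusted p = 0.0027). In mutants the difference varied with cage, at -0.10 in cage A, -0.52 in cage B and -0.95 in cage C. That call was lost without cage C (-0.27, adjusted p = 0.226), without cage as a covariate (adjusted p = 0.0738) and after median-of-ratios scaling (-0.38, adjusted p = 0.0569). In controls the difference was -0.50, -0.76 and -0.40 in the same cages.

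Axin2 had the smallest difference that passed. It had 8.80, 12.4 and 20.4 FPKM in ascending mutants and 10.5, 17.3 and 21.7 FPKM in descending mutants, and 10.4, 14.1 and 17.9 FPKM in ascending controls and 14, 19.2 and 37.3 FPKM in descending controls. The difference was -0.37 ± 0.14 in mutants (adjusted p = 0.0408) and -0.49 ± 0.17 in controls (adjusted p = 0.0361). Neither call held up. After median-of-ratios scaling the adjusted p was 0.196 in mutants and 0.135 in controls, and after quantile normalization 0.125 and 0.0764. The call was also lost in 10 of 16 fits that leave out 1 mutant library, all but ascending mutants A1, A2, A3 and B1 and descending mutants A2 and A3. In controls it was lost in 8 of 14 such fits, all but ascending controls B1, B2 and C1 and descending controls A1, A2 and B1. Exons of Axin2 share 209 bases, 3.80% of their length, with the antisense gene Gm11670.

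Among the crypt position genes, Sox9, a transcription factor of the crypt base, did not overlap between regions in either genotype. It had 12.3, 17.2 and 26.1 FPKM in ascending mutants and 27.5, 34.1 and 53.3 FPKM in descending mutants, and 15.2, 20.8 and 29.0 FPKM in ascending controls and 36.6, 38.8 and 45.7 FPKM in descending controls. The difference was -1.03 ± 0.15 in mutants (adjusted p = 3.5e-05) and -0.87 ± 0.13 in controls (adjusted p = 1.4e-04). It lay below -0.60 in each of the 3 cages of both genotypes.

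The EphB receptors were set apart by the size of their regional difference. Ephb3 differed by -1.19 ± 0.17 in mutants (adjusted p = 2.5e-05) and -1.12 ± 0.15 in controls (adjusted p = 6.5e-05), the largest of the 10 genes on the log2(FPKM + 1) scale. By the ratio of mean FPKM, ascending over descending, Smoc2 was lower still, at 0.370 against 0.379 for Ephb3 in mutants, and in controls Smoc2 at 0.397 and Ascl2 at 0.398 were below Ephb3 at 0.416. It had 3.55, 5.05 and 6.87 FPKM in ascending mutants and 7.27, 12.0 and 22.1 FPKM in descending mutants, and 5.32, 6.25 and 7.89 FPKM in ascending controls and 9.27, 14.3 and 21.4 FPKM in descending controls, without overlap in either genotype. Ephb2 had 6.75, 9.03 and 11.2 FPKM in ascending mutants and 10.1, 12.2 and 16.7 FPKM in descending mutants, and the difference of -0.47 ± 0.11 passed (adjusted p = 0.0034). In controls Ephb2 had 5.91, 9.20 and 11.5 FPKM in ascending colon and 10.3, 11 and 14.1 FPKM in descending colon, and the difference of -0.32 ± 0.13 did not pass (adjusted p = 0.0693). It passed without cage A (-0.46, adjusted p = 0.0373), without ascending control B2 (adjusted p = 0.0355) and without descending control A1 (adjusted p = 0.0471).

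The sequences upstream of these 2 genes are shown because their levels diverge between the regions. They are the bases before the RefSeq start in the GRCm38.p6 build, cut short for Ephb3 where an annotated transcript begins. Capitals mark, on either strand, CANCTG, a form of the E-box that basic helix-loop-helix factors such as Ascl2 bind. In Ephb2 the capitals read CAGGTG, which is CACCTG on the other strand.
Ephb2 (chr4:136836013-136836262, minus strand): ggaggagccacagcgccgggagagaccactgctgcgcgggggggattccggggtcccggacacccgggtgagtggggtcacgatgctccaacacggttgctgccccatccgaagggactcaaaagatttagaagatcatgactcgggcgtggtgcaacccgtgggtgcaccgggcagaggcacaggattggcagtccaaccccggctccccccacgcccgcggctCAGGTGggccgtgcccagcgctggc
Ephb3 (chr16:21204545-21204754, plus strand): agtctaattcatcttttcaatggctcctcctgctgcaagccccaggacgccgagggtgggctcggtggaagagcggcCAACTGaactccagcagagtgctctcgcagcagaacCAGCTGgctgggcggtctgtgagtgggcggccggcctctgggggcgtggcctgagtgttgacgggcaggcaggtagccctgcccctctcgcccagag
Ephb2 has 1 such motif, at position -25 from the RefSeq start, and Ephb3 has 2, at -173 and -137. Of the 10 genes, 6 had a RefSeq promoter entry, with 7 promoters in all, and 3 of the 7 held CANCTG in the 250 bases before the start, the other one being that of Ascl2 at -249. The motif lies in 44.8% of all 32851 promoters in windows of that length, on either strand. The Tcf motifs CTTTGAT and CTTTGTT were in 0 of the 7 promoters and in 3.21% and 5.03% of all promoters, which says only that these letters are not in these windows.

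The ratio of Ephb3 to Ephb2 within a library was examined after the values of both genes had been seen. The pair was taken up because its regional differences were unlike, so that p-values for the region are not independent support. The permutations did not take cage into account, and the adjustment does not cover the choice of this pair. Its log2 averaged -0.86 ± 0.17 in ascending mutants and -0.024 ± 0.38 in descending mutants (SD, n = 8 each), and -0.50 ± 0.45 in ascending controls and 0.38 ± 0.42 in descending controls (SD, n = 7 each). Ephb3 exceeded Ephb2 in 0 of 8 ascending mutants and 5 of 8 descending mutants, and in 1 of 7 ascending controls and 6 of 7 descending controls. The regional difference was -0.84 in mutants (two-sided exact permutation p = 6.2e-04, adjusted p = 0.0025 over 4 comparisons) and -0.88 in controls (two-sided exact permutation p = 0.0047, adjusted p = 0.0093). The difference between mutants and controls was -0.36 in ascending colon and -0.41 in descending colon, and neither passed (exact permutation, adjusted p = 0.0684 and 0.0696). In ascending colon cage A showed no such gap, with a mean log2 ratio of -0.91 in mutants and -0.92 in controls, while cage B had -0.70 in mutants and -0.36 in controls and cage C had -0.92 in mutants and -0.28 in controls. In descending colon the gap lay in cage A, with a mean log2 ratio of -0.36 in mutants and 0.88 in controls, while cage B had 0.12 in mutants and 0.10 in controls and cage C had 0.22 in mutants and 0.30 in controls. Without cage A the regional difference in controls was -0.51 and no longer passed.

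**Figure D3:**
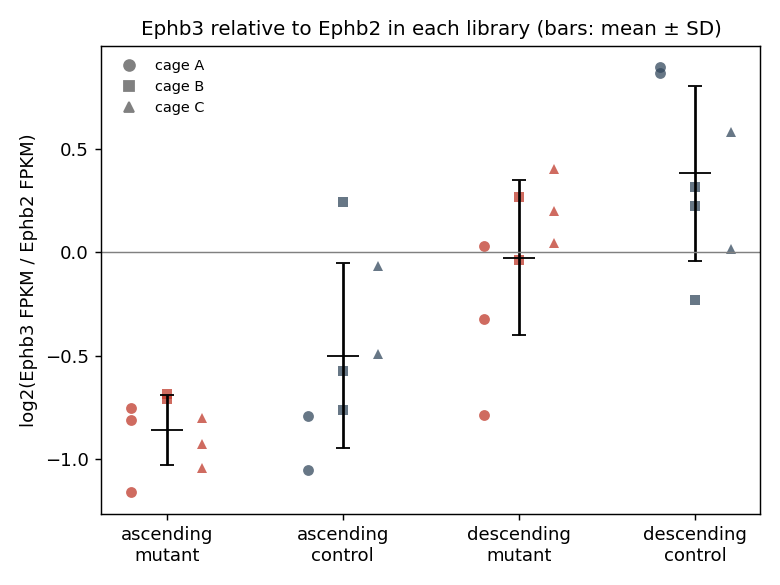
Log2 ratio of Ephb3 to Ephb2 FPKM in each library, by region and genotype, with symbols for cages and bars for the mean ± SD. All 8 ascending mutants lie below 0, and 6 of the 7 descending controls lie above it.

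Read without fold changes, Smoc2, Lrig1, Znrf3, Sox9 and Ephb3 had every ascending mutant below every descending mutant, 5 of the 10 genes against 7.27% of all genes. In controls the same held for Smoc2, Lrig1, Sox9 and Ephb3, 4 of the 10 genes against 6.89% of all genes.

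Other genes of the pathways around the crypt base were lower in some cases and higher in others. Their counts stand against the 25.1% of all genes that were lower and the 12.8% that were higher in ascending controls, and several lists lie near those shares. In controls, of 14 Wnt receptors and co-receptors tested, 6 were lower and 3 higher in ascending colon. Ror1, a Wnt5a receptor, was lowest, at 1.31 ± 0.334 FPKM in ascending controls and 7.18 ± 0.968 FPKM in descending controls (SD, n = 7 each), a difference of -1.83 (adjusted p = 2.6e-07). Among the Frizzled receptors Fzd7 was lower at -0.89 and Fzd6 at -0.77, and Fzd5 was higher by 0.97 (adjusted p = 4.5e-05, 6.7e-05 and 3.4e-05). Of 19 transducers of the Wnt signal 2 were lower and 1 higher. Tcf7l1, a Tcf factor that mostly represses targets, had 2.82 ± 0.889 FPKM in ascending controls and 22.4 ± 6.14 FPKM in descending controls (SD, n = 7 each), a difference of -2.60 (adjusted p = 7.9e-07). Dvl2 was lower at -0.46 and Ctnnb1, which encodes beta-catenin, higher by 0.39 (adjusted p = 0.017 and 0.022).

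Of 7 Wnt ligands, R-spondins and secretion factors tested in controls, Wnt5a was higher in ascending colon by 1.00, and Wnt8b and Wls, the Wnt carrier, were lower at -0.99 and -0.38 (adjusted p = 8.8e-04, 0.013 and 0.044). Of 5 secreted inhibitors, Sfrp1 was lower at -1.92, Kremen2 lower at -0.42, and Wif1 higher by 0.95 (adjusted p = 4.5e-04, 0.021 and 0.0016). Of 17 other Wnt targets 4 were higher, among them Cdx2 by 3.52, Cd44 by 1.61 and Tnfrsf19 by 0.71, and 4 were lower, among them Rgmb at -0.47 (adjusted p = 5.8e-05, 2.7e-04, 0.0028 and 0.0055). The list median was -0.054, where that of the 10 genes was -0.80. Of 19 other stem cell markers 7 were lower, among them Soat1 at -1.58, Msi2 at -0.91 and Cdca7 at -0.87, and 3 were higher, among them Prom1 by 1.83. In mutants, where 29.7% of all genes were lower and 14.3% higher, 4 of 14 other Wnt targets were lower and 3 higher, and 8 of 19 other stem cell markers were lower and 6 higher.

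Of 11 Notch pathway genes, 5 were lower in ascending controls and 0 higher. Dll1, a ligand on crypt base cells, was lower at -0.97, Hes1, a target, at -0.83 and the receptor Notch1 at -0.55 (adjusted p = 2.1e-04, 0.0012 and 0.0044). Of 13 BMP pathway genes 3 were lower, among them Bmp2 at -2.13 and Smad4 at -1.16, and 3 were higher, among them Id3 by 1.08 and Bmp7 by 0.99. Of 8 ephrins and other Eph receptors, Ephb6 and Ephb4 were lower at -2.13 and -0.64, and 3 were higher, Epha1 and Epha2 by 1.07 and 1.24 among them. Of 5 deep crypt secretory genes Reg4, the marker of those cells, was lower at -4.53, and Spdef and Kit were higher by 2.03 and 0.88.

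Proliferation genes were lower with the 10 genes. Of 25 cell cycle genes, 14 were lower in ascending than in descending mutants and 23 in ascending than in descending controls, and 0 were higher, with medians of -0.51 and -0.68. Mki67 had 29.4 ± 8.67 FPKM in ascending mutants and 59.8 ± 15.8 FPKM in descending mutants, and 21.2 ± 4.59 FPKM in ascending controls and 41.5 ± 8.44 FPKM in descending controls (SD, n = 8, 8, 7 and 7). Smooth muscle markers had larger differences than the 10 genes, with medians of -1.77 in mutants and -1.39 in controls. In both genotypes 9 of 10 were below 0, where 34.2% of all genes in mutants and 34.7% in controls were above 0. Of these 10 smooth muscle markers, 9 were lower and 1 higher in ascending mutants, and 0 were lower and 1 higher in ascending controls, where their summed level spanned 36.0 to 450.1 FPKM in ascending colon and 38.8 to 464.0 FPKM in descending colon. Of 11 fibroblast markers, 4 were lower and 0 higher in ascending mutants and 0 were lower and 1 higher in ascending controls, with medians of -0.56 and -0.20. The median over 11 epithelial markers was 0.11 in mutants and -0.054 in controls. T cell markers were higher in ascending colon, 6 of 7 in mutants and 8 of 8 in controls. The part of tissue content in the regional differences of the 10 genes was not tested.

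**Figure D4:**
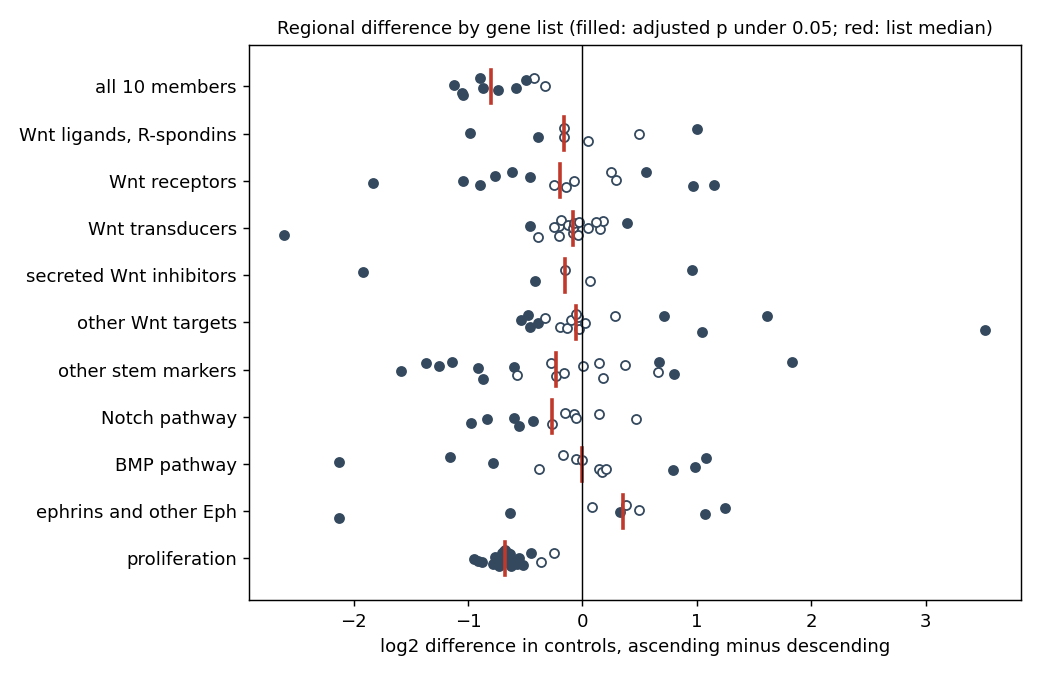
Regional difference in controls, ascending minus descending in log2(FPKM + 1), of the 10 genes and of related gene lists. Filled points passed at an adjusted p under 0.05, and red bars mark list medians. The 10 genes and the proliferation genes lie below 0 throughout, where 34.7% of all genes lie above it. The other lists spread to both sides.

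Mutants were next compared with controls in each region. All 10 genes had negative differences in ascending colon and 9 of 10 in descending colon, Ephb2 at 0.14 being the exception. Of all genes, 38.7% in ascending and 37.8% in descending colon had differences above 0. Of the 10 genes, 0 passed in either region. No gene of the table passed either, 0% of 12178 genes in ascending colon and 0% of 12219 in descending colon. In ascending colon 1396 of the 12178 genes had an unadjusted limma p under 0.05, with 3 of the 10 genes among them. In descending colon 267 of the 12219 genes did, with 1 of the 10 genes among them. Where no gene differs, a share of about 0.05 is due to chance. The share of all genes was above that in ascending colon and below it in descending colon. The median difference of the 10 genes was -0.29 in both regions, where that of all genes was -0.050 in ascending and -0.037 in descending colon. Single libraries moved these medians, to -0.18 without ascending control A2 and to -0.15 without descending control A2. The ascending median was -0.15 without cage A, -0.36 without cage B and -0.16 without cage C. The descending median was -0.024 without cage A, -0.49 without cage B and -0.35 without cage C, and -0.13 with array quality weights. Mutants and controls overlapped in 10 of 10 genes in both regions, and among all genes 0.0821% had every mutant below every control in ascending colon and 0% in descending colon.

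Lgr5 had the largest difference of the 10 genes in both regions, in ascending colon closely followed by Sox9. In ascending colon it had 0.38, 0.74 and 1.08 FPKM in mutants and 0.75, 1.17 and 1.55 FPKM in controls, a difference of -0.35 ± 0.12 (SE, unadjusted p = 0.0118, adjusted p = 0.338). In descending colon it had 0.38, 0.815 and 1.23 FPKM in mutants and 0.88, 1.69 and 3.83 FPKM in controls, a difference of -0.76 ± 0.18 (unadjusted p = 8.0e-04, adjusted p = 0.999). That unadjusted p ranked 4 among the 12219 genes of the fit, of which 267 had an unadjusted p under 0.05, fewer than chance alone gives on average. By cage, from A to C, the descending difference was -1.20, -0.42 and -0.67 and the ascending one -0.50, -0.27 and -0.28. Within each descending cage every mutant lay below every control: 0.67, 0.62 and 1.23 FPKM in mutants and 2.60 and 3.83 FPKM in controls of cage A, 0.86 and 0.38 FPKM in mutants and 1.69, 0.95 and 0.88 FPKM in controls of cage B, and 0.77, 1.06 and 1.08 FPKM in mutants and 1.18 and 3.49 FPKM in controls of cage C. In cages B and C the margin between the highest mutant and the lowest control was small, and the spread lies mostly among the controls. Of all genes, 21.2% had this order in descending cage A, 5.41% in cage B and 4.48% in cage C. The share with it in all 3 cages was not computed, and the order was examined after the values had been seen. The regional effects were not shown to differ: their difference was 0.34 ± 0.22 (interaction, adjusted p = 0.99973), and 0 of 10 genes passed that test, as did 0% of 12353 genes.

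The other stem cell genes had negative differences in both regions. Ascl2 differed by -0.32 ± 0.27 in ascending and -0.53 ± 0.26 in descending colon, Smoc2 by -0.32 ± 0.18 and -0.39 ± 0.20, and Lrig1 by -0.15 ± 0.10 and -0.15 ± 0.15. Of the feedback genes, Rnf43 differed by -0.30 ± 0.14 in ascending and -0.33 ± 0.15 in descending colon, Axin2 by -0.13 ± 0.15 and -0.30 ± 0.21, and Znrf3 by -0.11 ± 0.13 in both. Of the crypt position genes, Sox9 differed by -0.34 ± 0.16 in ascending and -0.15 ± 0.12 in descending colon, and Ephb3 by -0.29 ± 0.12 and -0.27 ± 0.21. With 1 library left out, 6 of the 10 ascending and 8 of the 10 descending differences moved by more than 1.5 times. Ascl2 reached -0.11 without ascending control A2 and -0.54 without ascending mutant B2 in ascending colon, and -0.35 without descending control C2 in descending colon. Axin2 reached -0.029 without ascending control C1 and -0.26 without ascending mutant B1 in ascending colon, and -0.066 without descending control A2 in descending colon. Ephb2 differed by -0.024 ± 0.12 and 0.14 ± 0.11, and its sign in ascending colon flipped under scaling. In ascending colon Rnf43 passed with array quality weights (-0.43, adjusted p = 0.0373), and Rnf43 and Sox9 passed without cage B (-0.49 and -0.41, adjusted p = 0.0483 and 0.0498), in a setting where 652 genes passed in all. The ascending mutants of cage A had the lowest depths, 1.46 to 1.55 M reads.

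Markers of other cells were also uneven between the genotypes. Their sign counts stand against the 38.7% of all genes above 0 in ascending and 37.8% in descending colon. Summed fibroblast markers were 20.5 to 81.1 FPKM in ascending mutants and 66.2 to 165 FPKM in ascending controls, and 21.9 to 120 FPKM in descending mutants and 31.1 to 192 FPKM in descending controls. Of 11 fibroblast genes, 10 had negative differences in either region, with medians of -0.72 in ascending and -0.38 in descending colon. All 10 smooth muscle genes had negative differences in both, with medians of -1.07 and -0.64. Of macrophage markers 7 of 7 had negative differences in ascending and 6 of 8 in descending colon, with medians of -0.67 and -0.45, and of T cell markers 8 of 8 in ascending colon, with a median of -0.47. These medians were farther from 0 than the -0.29 of the 10 genes, and 0 of these markers passed. Proliferation genes had differences of the opposite sign, with 25 of 25 above 0 in ascending and 18 of 25 in descending colon, at medians of 0.38 and 0.20, and 0 passed. Mki67 differed by 0.46 in ascending and 0.47 in descending colon (adjusted p = 0.27 and 0.999). Epithelial markers also had mostly positive differences, 9 of 11 in each region, with medians of 0.21 in ascending and 0.13 in descending colon, and 0 passed. Of the Wnt lists, Sfrp1, a secreted Wnt antagonist, had the smallest p in descending colon, with a difference of -0.71 (adjusted p = 0.999). Its level there also differed among cages (moderated F test, adjusted p = 4.0e-05, the lowest of that fit), and its unadjusted p for a cage-dependent genotype effect was 0.039 (adjusted p = 0.879). The part of stromal and epithelial content in the differences of the 10 genes was not tested.

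In descending colon 0 of the 10 genes passed a test of cage dependence with all libraries. The differences between mutants and controls of some genes were unlike among the cages, with 2 or 3 libraries of each genotype in a cage. Of 12219 genes, 540 had an unadjusted p under 0.05 in that test, a share below the 0.05 that chance alone gives on average. Axin2 differed by -1.07, 0.31 and -0.15 in cages A, B and C, Ephb3 by -1.09, 0.34 and -0.05, and Sox9 by -0.53, 0.31 and -0.23. Their unadjusted p for a cage-dependent effect were 0.0081, 0.0069 and 0.0087, with an adjusted p of 0.879 each (limma, moderated F test), and 0 of 10 genes passed, where 0.00818% of all genes did. In descending cage A, Axin2 had 13.9, 10.5 and 10.8 FPKM in mutants and 17.4 and 37.3 FPKM in controls, and Ephb3 had 8.47, 11.6 and 7.27 FPKM in mutants and 19.1 and 21.4 FPKM in controls. In descending cage B, Ephb3 had 16.5 and 14.7 FPKM in mutants and 14, 9.27 and 13.8 FPKM in controls, the reverse order. Without descending control A1 the cage-dependent effect of Axin2 passed (adjusted p = 0.0279), in a fit where 132 genes did.

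Within descending cage A, 7 of the 10 genes had every mutant below every control, all but Smoc2, Znrf3 and Ephb2, where 21.2% of all genes did so. In descending cage B the count was 1 of 10 against 5.41% and in cage C 1 of 10 against 4.48%, Lgr5 in both. The opposite order, every mutant above every control, held in descending cage B for 4 of the 10 genes, Axin2, Sox9, Ephb2 and Ephb3, where 8.85% of all genes had it. It held for 0 of 10 in the other descending cages, against 9.02% in cage A and 3.54% in cage C. In ascending colon the counts were 7 of 10 in cage A against 19.1%, 0 of 10 in cage B against 4.99%, and 5 of 10 in cage C against 30.8%. The opposite order held for 0 of 10 in each ascending cage, against 12% of all genes in cage A, 7.82% in cage B and 12.9% in cage C. These counts were made after the values had been seen, and with 3 against 2 libraries complete separation is common. Without cage A the median descending difference of the 10 genes was -0.024, where it was -0.49 without cage B and -0.35 without cage C.

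**Figure D5:**
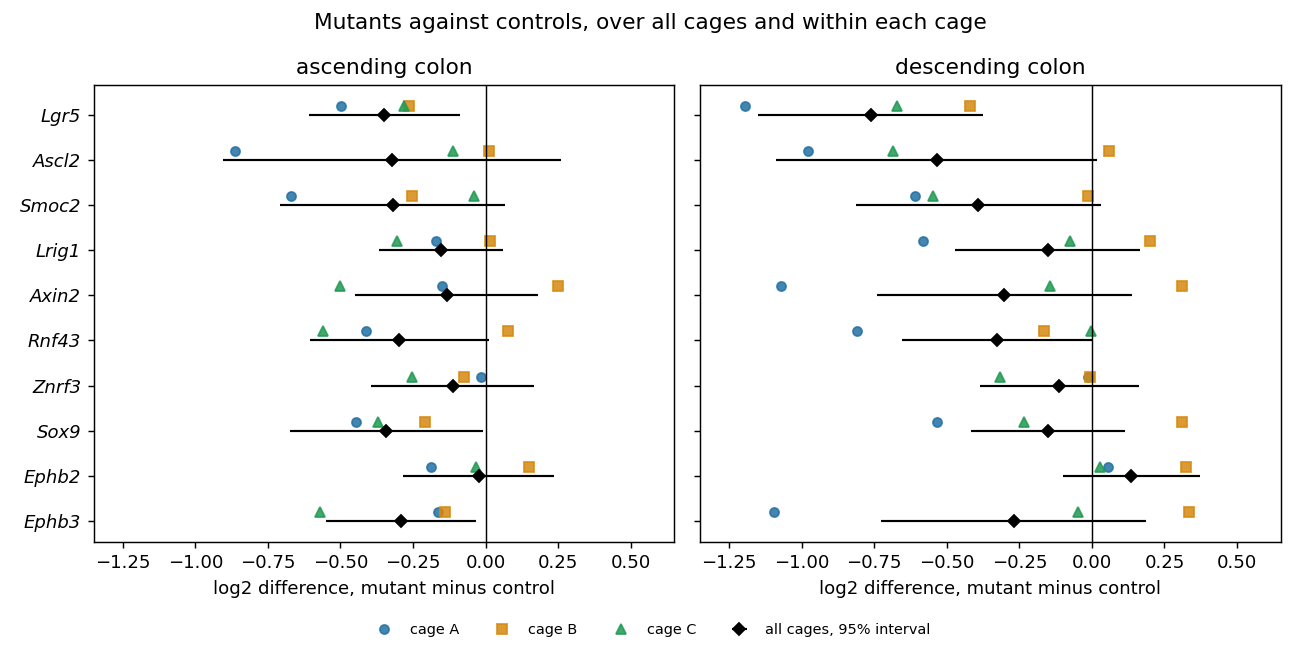
Difference between mutants and controls in log2(FPKM + 1) for each gene in ascending and descending colon, over all cages with its 95% interval (black) and within each cage (coloured symbols). Cage A lies farthest left for 8 of the 10 genes in descending colon, and cage B lies right of 0 for 6 of them.

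The level of a gene could also differ among cages in both genotypes. In ascending colon 0 of 10 genes passed that test, where 1.32% of all genes did, and in descending colon 0 of 10 passed, where 0.597% did. Rnf43 came nearest in descending colon (adjusted p = 0.0747): cages A, B and C averaged 10.5, 19.4 and 25.9 FPKM in mutants and 18.7, 22 and 25.7 FPKM in controls. Rnf43 passed without descending control A2 (adjusted p = 0.031), and Smoc2 passed without descending mutant A2 (adjusted p = 0.0334).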

How the data were processed

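RNA of 30 colon pieces was sequenced as single reads of 50 nt after depletion of ribosomal RNA, per the labels' protocols. The authors deposited 1 FPKM value per gene and library, with 2 decimals. Their processing used bcl2fastq 2.17, STAR and DESeq2 with GRCm38 (mm10), per the submitters' processing notes; no source used here gives the counter, annotation or filters. The files hold no read counts. Depth was estimated from the steps of low FPKM values of genes of 300 to 2500 bases (GENCODE M21 exon lengths), and it entered no test.

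Groups follow the labels. Values were transformed to log2(FPKM + 1), which understates changes of low genes such as Lgr5. A gene entered a fit where its libraries averaged 0.5 FPKM or more, as all 10 described genes did in each fit. Comparisons used limma 3.58.1 in R 4.3.3 (eBayes with a trend), with cage as a covariate for genotype and region and moderated F tests for cage, two-sided, with Benjamini-Hochberg adjustment over all kept genes. The ratio of Ephb3 to Ephb2 was compared with exact permutation tests (scipy 1.17.1). Nothing says that libraries of a group came from separate mice, so that p-values measure the spread between these libraries. The fits were tested on simulated data.

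The 10 genes and the 19 other gene lists were chosen with earlier results of these data known. Besides the 10 genes, genes are named with a difference from a list only where they are among the 4 with the smallest p in it. Alternatives were a replicate block, 1 fit of the 30 libraries, each cage or library left out, no cage covariate, array quality weights, quantile normalization, median-of-ratios scaling, robust moderation, a pseudocount of 0.1 and filters of 0 and 2 FPKM. A fit with neither ascending control B1 nor descending control A2, and all settings of the ratio, were chosen after seeing the data.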

Additional observations from a re-analysis of the deposited data

Results flagged for a closer look

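In 2 of 40 sets of values (10 genes in 4 groups), 1 library stood far from the others of its group by Dixon's test, and chance gives about 1 in 20. Both concern Axin2. Ascending mutant B1 had 20.4 FPKM of Axin2, where the next highest ascending mutant had 12.9, and the gap was 0.550 of the range on the log2 scale, above the critical value of 0.526 for 8 libraries. Descending control A2 had 37.3 FPKM of Axin2, where the next highest descending control had 21.5, and the gap was 0.569 of the range, just above the critical value of 0.568 for 7 libraries. Descending control A2 also had the lowest depth of the descending libraries, an estimated 3.21 M reads.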

How the results depend on the processing

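The counts of genes lower in ascending colon stayed within 1.5 times under each setting, between 7 and 9 of 10 in mutants and between 6 and 10 of 10 in controls, 8 of 10 in controls without ascending control B1 and descending control A2. The counts over all genes were 3528 without cage C in mutants, where 5368 passed with all cages, and 2069 without cage B and 2567 without cage C in controls, where 4744 passed with all cages. For mutants against controls in ascending colon, 1 of the 10 genes passed with array quality weights (746 of all genes) and 2 without cage B (652 of all genes). For cage, 2 genes passed with array quality weights in ascending colon (Rnf43 and Ephb2, with 1579 of all genes in place of 161) and 2 in descending colon (Rnf43 and Smoc2, with 973 of all genes in place of 73). With single libraries left out, the genes passing ranged from 0 to 1 for cage in descending colon and from 0 to 1 for its cage-dependent genotype effect. Over all genes such fits gave up to 170 for ascending mutants against controls (without ascending mutant B1), up to 381 and 132 for a cage-dependent effect (without ascending mutant B2 and descending control A1), and 44 to 581 for cage in ascending and 33 to 176 in descending colon. The cause of these shifts was not tested.

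Signs of small differences turned. For mutants against controls in ascending colon, Ephb2 was at 0.024 with median-of-ratios scaling, 0.018 with quantile normalization and 0.058 without cage A, and ranged from -0.10 to 0.019 with single libraries left out, and Axin2 was at 0.049 without cage C. In descending colon without cage A, Lrig1 was at 0.063, Axin2 at 0.083, Sox9 at 0.038 and Ephb3 at 0.14. Lgr5 between regions in mutants was at 0.011 with quantile normalization. The interaction, where no gene passed, turned with quantile normalization for Smoc2 (0.011) and Lrig1 (0.015), with array quality weights for Ascl2 (-0.39), Axin2 (-0.089), Rnf43 (-0.10) and Znrf3 (-0.10), without cage A for Smoc2 (0.061), Axin2 (-0.27), Rnf43 (-0.16) and Znrf3 (-0.00071), without cage B for Smoc2 (0.22), Lrig1 (0.092), Rnf43 (-0.079) and Ephb3 (0.20), without cage C for Lrig1 (0.10) and Ephb3 (0.20), and without ascending control B1 and descending control A2 for Ascl2 (-0.0060), Axin2 (-0.018), Rnf43 (-0.10) and Znrf3 (-0.023), a setting chosen after seeing the data. With single libraries left out it ranged from -0.16 to 0.064 for Smoc2, -0.10 to 0.037 for Lrig1, -0.048 to 0.22 for Axin2, -0.058 to 0.14 for Rnf43, -0.079 to 0.090 for Znrf3 and -0.17 to 0.050 for Ephb3.

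Replicate numbers were not taken to pair the libraries, since not every pair correlated above 0.1. Same-numbered libraries of the 2 regions correlated above 0.1 in 4 of 15 pairs. Same-numbered mutants and controls of a cage did so in 6 of 12 (median r of 0.10), and 8 of 30 libraries correlated best with their own number. These correlations cannot decide the pairing. They used deviations from group means, which mirror each other in groups of 2, so that both pairs between regions then share 1 value. With a replicate block 8 of 10 genes were lower in ascending mutants, Axin2 losing its call (adjusted p = 0.0531), and 8 of 10 in ascending controls, and 0 of 10 passed between mutants and controls in either region. Depth limits Ascl2 and Lgr5 most, at an estimated 1 and 9.6 reads in their lowest ascending mutant.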
